A study of Oryza sativa Japonica Group with 12 samples.

Results

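GASA genes encode small secreted peptides rich in cysteine, and the transcripts of many family members respond to the hormone gibberellin (GA). Transcripts of 2 such genes were followed in rice panicles: GASA2 (LOC4338883) and a further gene of the family, LOC4347055. Both were chosen by their low signal in the *fst* mutant on these same arrays, GASA2 at both stages and LOC4347055 at 5 days after pollination (DAP). Each gene had 1 probe set, so 2 of 57194 probe sets, or 2 of the 17905 genes that a probe set names, are described. The values that chose them, *fst* against WT at both stages for GASA2 and at 5 DAP for LOC4347055, are given as a description with no test.

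The groups were panicles of the *fst* mutant before flowering (MBF) and at 5 DAP (M5D), and panicles of wild type (WT) before flowering (WBF) and at 5 DAP (W5D), with 3 arrays each. The mutant, labelled cyn after its earlier name cynosure, carries a frame-shift in *FST*, a B-sister MADS-box gene, and both genotypes are japonica rice (cv. Junambyeo) grown in a greenhouse. Each sample pooled 20 panicles from 10 plants, so fewer cells of a type and less RNA per cell cannot be told apart. The description label of the mutant arrays calls them wild lines, while their titles and genotype name the mutant and were followed.

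GA is perceived by the receptor GID1, which binds GA and then brings about the loss of DELLA proteins such as SLR1, the repressors of the response. GA itself is made through CPS1, KS1 and KAO and then the GA20ox enzymes, and EUI1 and GA2ox enzymes inactivate it. In panicles GA is known for its part in stamen and pollen development, through the factor GAMYB, and in other plants GASA peptides have been tied to cell elongation, flowering and seed traits.

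The microarray values are RMA signals (linear, in arbitrary units), and changes are log2 differences of group means. Over the 12 arrays the median signal lay between 30.9 and 33.7 and the lower quartile between 10.1 and 11.3, and arrays of a group correlated at r = 0.990 to 0.996 over all probe sets. The *FST* probe set gave 211 to 236 in MBF, against 106 to 123 in WBF, and 1058 to 1378 in M5D, against 1263 to 1523 in W5D. Its transcript therefore persisted in the mutant and does not check the labels.

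GASA2 was among the brighter probe sets before flowering and in the dimmer part of the arrays (28.8th to 35.1st percentile) at 5 DAP in *fst*. Before flowering it gave signals of 1060, 1319 and 651 on the 3 MBF arrays, against 3149, 3043 and 5864 on the 3 WBF arrays. Every MBF array lay below every WBF array, the closest pair differing 2.31-fold. The means were 1010 ± 337 in MBF and 4019 ± 1599 in WBF (SD, n = 3 each), placing GASA2 at the 87.9th to 94.0th percentile of probe sets in MBF and the 97.8th to 99.3rd in WBF.

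At 5 DAP GASA2 gave 12.4, 15.9 and 11.6 on the M5D arrays, against 57.2, 137 and 101 on the W5D arrays. The groups were again separate, by 3.60-fold at the closest. All 3 M5D values were close to the lower quartile of the arrays, at the 28.8th to 35.1st percentile, while the W5D values lay at the 58.9th to 69.9th. The means were 13.3 ± 2.26 in M5D and 98.3 ± 40.0 in W5D (SD, n = 3 each).

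The GASA2 signal in *fst* was thus 25.3% of that in WT before flowering (log2 change -1.98, SE 0.34, 95% interval -2.71 to -1.25) and 14.3% at 5 DAP (-2.81, SE 0.34, -3.54 to -2.08). Of all probe sets, 0.135% were at least 4-fold lower in *fst* before flowering and 0.643% at 5 DAP. GASA2, 3.95-fold lower before flowering, fell just short of that mark there and passed it at 5 DAP. These are the contrasts that chose the gene. The *fst* change at 5 DAP minus that before flowering was -0.83 (SE 0.48, 95% interval -1.86 to 0.20), an interval that includes 0. Adding 16 to every signal before the logarithm, which weighs down dim values, brought this difference to 0.06 and the change at 5 DAP to -1.90. The M5D values are near the lower quartile of the arrays. GASA2 varied widely within groups, with an SD of 17.0% of the mean in M5D and 33.3% to 40.7% of the mean in the other 3 groups.

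**Figure D1:**
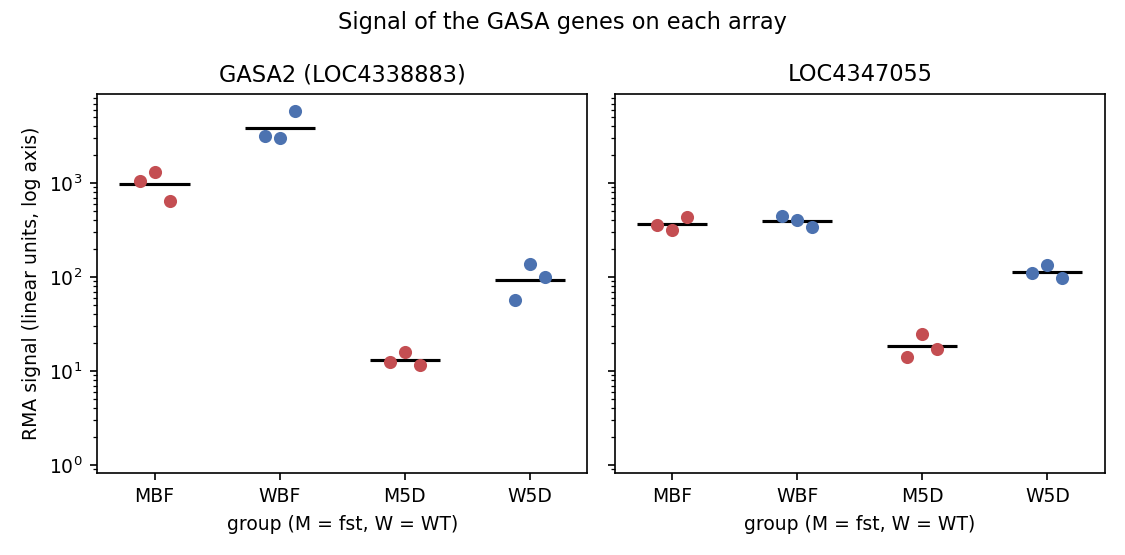
Signals of GASA2 (left) and LOC4347055 (right) on every array, on a log axis, for fst (M, red) and WT (W, blue) before flowering (BF) and at 5 DAP (5D), with lines at the geometric means. GASA2 is lower in fst at both stages, while LOC4347055 overlaps between the genotypes before flowering (315 to 440 in MBF, 339 to 444 in WBF) and is separate at 5 DAP.

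LOC4347055 was at a similar level in both genotypes before flowering. It gave 359, 315 and 440 on the MBF arrays, against 444, 399 and 339 on the WBF arrays. The groups overlapped, with means of 371 ± 63.6 in MBF and 394 ± 53.0 in WBF (SD, n = 3 each). This comparison did not choose the gene. The log2 change was -0.09 (SE 0.20, adjusted p = 0.834, limma), and its 95% interval of -0.52 to 0.34 spans both lower and higher levels in *fst*. Over all probe sets, 4.63% passed the test in this comparison, 2.81% as lower in *fst*.

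At 5 DAP LOC4347055 gave 14.1, 24.9 and 17.3 on the M5D arrays, against 111, 133 and 97.9 on the W5D arrays. The highest M5D array lay 3.93-fold below the lowest W5D array. Means were 18.8 ± 5.54 in M5D and 114 ± 17.6 in W5D (SD, n = 3 each), a log2 change of -2.63 (SE 0.20, 95% interval -3.06 to -2.20). The *fst* level was 16.1% of WT, and the change was -1.90 with 16 added to every signal. At this stage 11.6% of all probe sets passed the test, 5.41% as lower in *fst*, and as this contrast chose the gene nothing is read from that share. The *fst* change at 5 DAP minus that before flowering was -2.54 (SE 0.28, 95% interval -3.15 to -1.93), or -1.82 with 16 added.

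**Figure D2:**
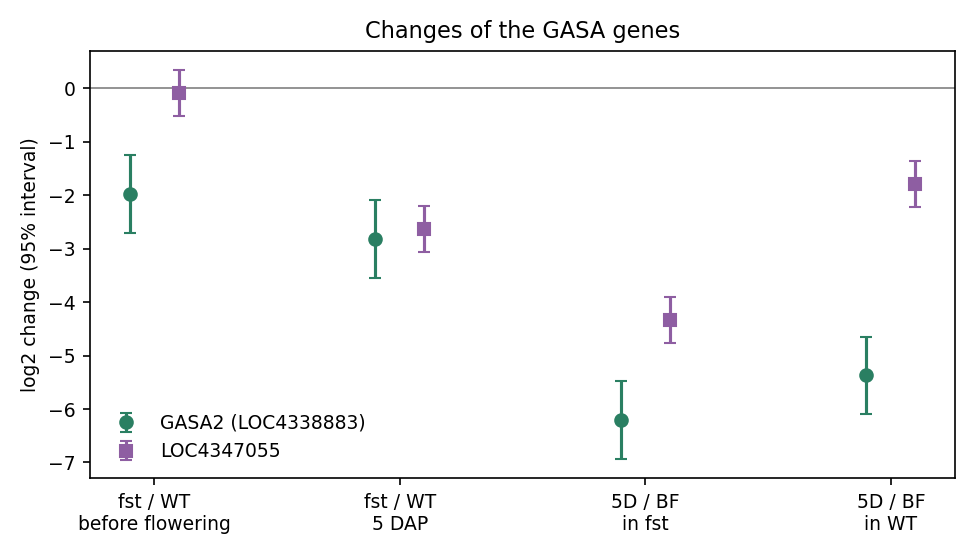
Log2 changes of GASA2 (circles) and LOC4347055 (squares) with 95% intervals, for fst over WT at each stage and for 5 DAP over before flowering within fst and within WT. Before flowering GASA2 is at -1.98 and LOC4347055 at -0.09, and the changes within fst, -6.20 and -4.33, lie below those within WT, -5.37 and -1.79.

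Both genes fell between the stages, in both genotypes. These comparisons were not used to choose the genes, although they share their arrays with those that were. In *fst* GASA2 was 73.5-fold lower at 5 DAP than before flowering (log2 change -6.20, SE 0.34, adjusted p = 1.09e-08, limma), and its closest arrays of the 2 stages were 41.0-fold apart. In WT it was 41.4-fold lower (-5.37, SE 0.34, adjusted p = 5.21e-08, limma), with the closest arrays 22.2-fold apart. With 16 added to every signal the changes were -5.08 in *fst* and -5.14 in WT, so the size of the fall in *fst* depends on how the dim M5D values are treated. Only 241 of 57194 probe sets fell further in *fst* and 286 in WT, and 230, GASA2 included, fell at least as far as it did in both.

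LOC4347055 was 20.2-fold lower at 5 DAP in *fst* (log2 change -4.33, SE 0.20, adjusted p = 1.90e-09, limma), and the change was -3.48 with 16 added to every signal. In WT it was 3.46-fold lower (-1.79, SE 0.20, adjusted p = 1.42e-05, limma). The stages did not overlap in either genotype, the closest arrays being 12.7-fold apart in *fst* and 2.55-fold apart in WT. Further falls were seen for 478 probe sets in *fst* and 1368 in WT. Both genes, 2 of 2, thus passed the test in each genotype, beside 26.7% of all probe sets in *fst* and 31.3% in WT. The M5D arrays, on which both genes were chosen as low, enter the comparison within *fst*. That count is therefore not independent of the choice. Both were lower at 5 DAP, as were 6385 of the 57194 probe sets by this test in *fst* and 8554 in WT. Falls of at least 16-fold, which GASA2 showed in both genotypes and LOC4347055 in *fst*, were found for 0.946% of probe sets in *fst* and 0.834% in WT. The median change over all probe sets was 0.01 in *fst* and 0.06 in WT.

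In order of level, GASA2 stood highest in WBF, then MBF, W5D and M5D, and neighbouring groups did not overlap. LOC4347055 ran through WBF and MBF, which did not differ beyond their spread, then W5D and M5D. Levels are not compared between the 2 genes, which have different probes.

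Genes of other tissues of the panicle also moved between these groups. Before flowering the summed signal of 9 genes active in the tapetum or in pollen development was 3018, 9037 and 2316 on MBF arrays 1, 2 and 3, against 17332, 8040 and 18162 on WBF arrays 1, 2 and 3. The groups overlapped, because MBF array 2 lay above WBF array 2. Of the 9 genes 4 were called lower in *fst*, none higher, beside 2.81% of all probe sets called lower, and their median log2 change was -0.95, beside 0.04 over all probe sets. RTS, a tapetum gene of rice that is needed for male fertility, made up 59.2% to 84.2% of the sum in MBF and 81.1% to 86.0% in WBF. Without RTS the other 8 genes summed to 945 to 1430 in MBF, against 1522 to 2708 in WBF, and did not overlap. CYP703A3 and PTC1 stayed at group means of 9.73 to 13.1 throughout.

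GASA2 was highest in MBF on array 2 and lowest on array 3, and in WBF highest on array 3 and lowest on array 2. The full anther sum was highest and lowest on the same arrays. In WBF this order was that of RTS. Without RTS the WBF sum was 2708, 1522 and 2541 on arrays 1, 2 and 3, highest on array 1. GASA2 was also nearly level on WBF arrays 1 and 2, at 3149 and 3043, where the full sum was 17332 and 8040. Without both arrays 2 the GASA2 change before flowering was -2.37. The part of the anther genes in the GASA2 difference was not tested. LOC4347055 overlapped between the genotypes at this stage, while 4 of the 9 anther genes were lower in *fst*. At 5 DAP the anther sum was 401 to 452 in M5D and 445 to 480 in W5D, far below the level before flowering. Most of it was then MSP1, at 283 in M5D and 320 in W5D, against 345 in MBF and 418 in WBF. Of the 9 genes 1 was called lower in *fst* at 5 DAP and none higher, beside 5.41% of all probe sets called lower.

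**Figure D3:**
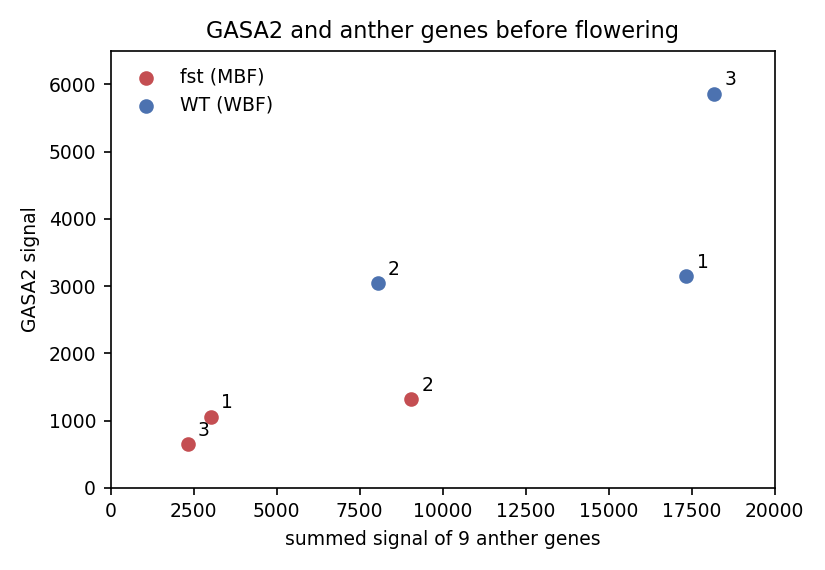
GASA2 signal against the summed signal of 9 anther genes on the 6 arrays before flowering, for fst (MBF, red) and WT (WBF, blue), numbered by array. Array 2 of MBF (9037) and array 2 of WBF (8040) are close on the anther axis, at GASA2 signals of 1319 and 3043.

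Seed genes were compared in the same way. At 5 DAP the summed signal of 4 endosperm genes was 1872 to 2364 in M5D, against 5686 to 11064 in W5D, and that of 2 embryo genes was 316 to 362 in M5D, against 1169 to 1679 in W5D. GLUA1, a glutelin storage protein, averaged 7.55 in M5D and 1973 in W5D, and WX1, the starch synthase of amylose, averaged 115 in M5D and 4339 in W5D. The probe sets used for the other 2 endosperm genes gave similar levels in the genotypes. They were GLUA2 at 178 in M5D and 167 in W5D and GLB1 at 1756 in M5D and 2141 in W5D. GLUA2 has 2 probe sets, and only the brighter over all arrays is described. Of the 4 endosperm genes 2 were called lower in *fst* and none higher, and of the 2 embryo genes both were called lower, beside 5.41% of all probe sets. Before flowering the endosperm sum was 3281 to 3642 in MBF and 3083 to 3860 in WBF. GLUA1 was then at 6.30 in MBF and 6.94 in WBF, and the other 3 genes at group means of 571 to 1656. GLUA2 averaged 912 in MBF and 571 in WBF, and GLB1 averaged 1656 in MBF and 1634 in WBF. The 3 genes thus gave signal before pollination, and the sum does not follow endosperm alone. Of the 4 genes 1 was called higher in *fst* before flowering and none lower, beside 4.63% of all probe sets called in either direction. The embryo sum did not overlap between the genotypes before flowering either, at 978 to 1588 in MBF and 2067 to 3037 in WBF. Of its 2 genes, RAB21 and EMP1, 1 was called lower in *fst* at that stage, beside 2.81% of all probe sets. RAB21 made up most of the sum, averaging 1265 in MBF, 2415 in WBF, 316 in M5D and 1065 in W5D. EMP1 averaged 36.7 in MBF, 67.8 in WBF, 30.3 in M5D and 296 in W5D. The sum was higher before flowering than at 5 DAP in each genotype, so it does not follow the embryo alone. The part of these genes in the differences of GASA2 at both stages and of LOC4347055 at 5 DAP was not tested. The sum of 2 photosynthesis genes, RBCS and CAB2R, lay between 15782 and 18569 over all 12 arrays.

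Of 20 genes of GA signalling, synthesis and inactivation listed, 11 were measured. None passed the test for *fst* against WT before flowering, beside 4.63% of all probe sets. An unadjusted p under 0.05 (limma) was found for 2 of the 11. The share of all probe sets at that unadjusted threshold is not given here, so nothing is read from this count. SLR1, the DELLA repressor, gave 945 ± 177 in MBF and 644 ± 117 in WBF (SD, n = 3 each; log2 change 0.55, SE 0.19, adjusted p = 0.113, limma). With array weights, which let noisier arrays count less, the adjusted p was 0.0224 for SLR1 and 0.0353 for SLRL1, a related DELLA-like gene.

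At 5 DAP 1 of the 11 passed, a share near the 11.6% of all probe sets that did. It was GA20ox3, which encodes an enzyme of the last steps of GA synthesis. It gave 862, 944 and 798 on the M5D arrays, against 550, 588 and 517 on the W5D arrays, and the log2 change of 0.65 (SE 0.12) passed as higher in *fst* (adjusted p = 0.00324, limma). The groups did not overlap. Before flowering it averaged 1252 ± 154 in MBF and 1287 ± 133 in WBF (SD, n = 3 each). The *fst* change at 5 DAP minus that before flowering was 0.69 (SE 0.17), past the threshold with an adjusted p of 0.0305 (limma), as were 6.36% of all probe sets. That call was lost without MBF 1, MBF 3, WBF 2, WBF 3, M5D 2, W5D 1 or W5D 3, each left out in turn, with adjusted p of 0.0526 to 0.0783.

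Between the stages 8 of the 11 passed the test in *fst* and 8 in WT, 3 higher and 5 lower at 5 DAP in each, beside the 26.7% and 31.3% of all probe sets given above for *fst* and WT. KAO and CPS1, enzymes of GA synthesis that act before the GA20ox enzymes, had the largest falls of the list in both genotypes. KAO averaged 30.0 in M5D against 1646 in MBF (log2 change -5.77, SE 0.26, adjusted p = 1.83e-09, limma), and 23.9 in W5D against 2015 in WBF (-6.43, adjusted p = 6.23e-10). With 16 added to every signal the KAO changes were -5.15 in *fst* and -5.66 in WT. CPS1 averaged 63.2 in M5D against 1300 in MBF (-4.39, SE 0.21, adjusted p = 3.23e-09, limma), and 48.0 in W5D against 1330 in WBF (-4.82, adjusted p = 1.28e-09).

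Smaller falls were seen for GAMYB (-1.27 in *fst* and -1.31 in WT), GA20ox3 (-0.52 in *fst* and -1.22 in WT) and EUI1, an enzyme that inactivates GA (-1.00 in *fst* and -0.56 in WT). SLRL1 (0.83 in *fst* and 1.17 in WT), the receptor GID1 (0.37 in *fst* and 0.32 in WT) and GA20ox2 (0.55 in *fst* and 0.38 in WT) were higher at 5 DAP. In WT 3 of these calls were lost when single arrays were left out. GID1 was lost without WBF 1, W5D 2 or W5D 3 (adjusted p up to 0.105, limma), GA20ox2 without WBF 1, WBF 2 or any single W5D array (up to 0.17), and EUI1 without WBF 2, WBF 3 or any single W5D array (up to 0.0993). KS1, SPY (a repressor of the response) and SLR1 did not pass in either genotype.

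**Figure D4:**
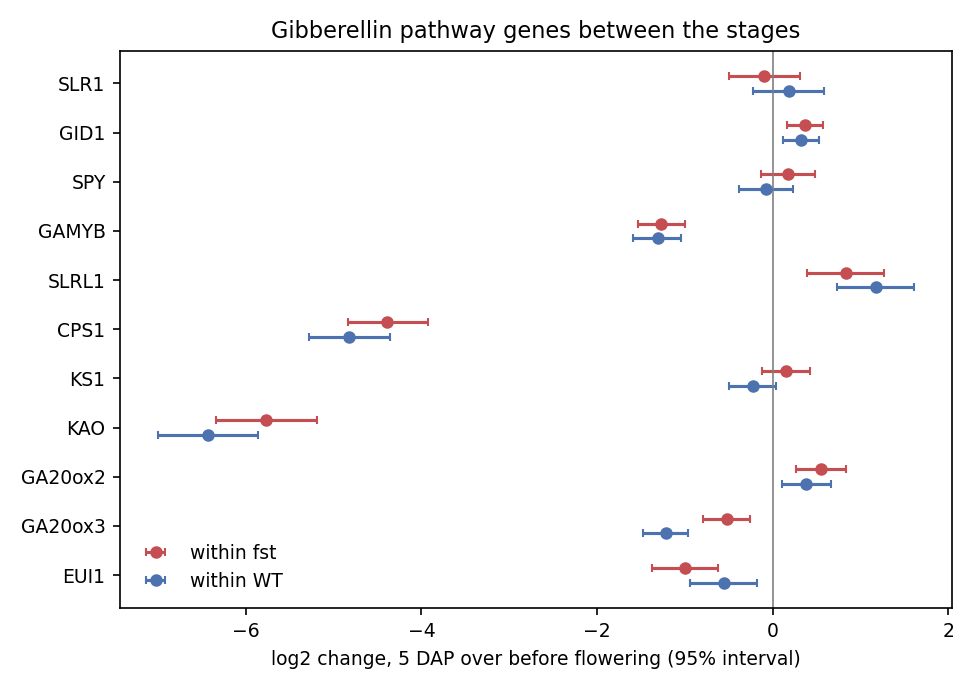
Log2 change from before flowering to 5 DAP (5 DAP over before flowering) with 95% intervals for the 11 measured GA pathway genes, within fst (red, upper) and within WT (blue, lower). KAO and CPS1 lie between -6.43 and -4.39, and the other 9 genes between -1.31 and 1.17.

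The genes most like each GASA gene were taken among 16225 probe sets with a single gene and a group mean of at least 100, by Pearson r of the log2 signal over the 12 arrays, which fall into 4 groups and were normalized together. For GASA2 they were LOC4336657 (r = 0.988), LOC4328191 (0.985), LOC4338825 (0.980), LOC4342250 (0.980) and LOC4352516 (0.980). LOC4328191 averaged 428 in MBF, 976 in WBF, 43.3 in M5D and 180 in W5D. LOC4352516, named COX5c after a subunit of mitochondrial cytochrome oxidase, had the same order of groups over a far narrower range, 5632 in MBF, 6116 in WBF, 4211 in M5D and 4716 in W5D. In all, 103 of the probe sets compared had an r above 0.95 with GASA2.

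For LOC4347055 the most alike were LOC9267997 (r = 0.981), LOC4339045 (0.979), LOC4346011 (0.979), LOC4324614 (0.978) and LOC4339696 (0.978), and 54 probe sets had an r above 0.95. The most alike, LOC9267997, averaged 2701 in MBF, 4226 in WBF, 133 in M5D and 959 in W5D. Its log2 change in *fst* before flowering was -0.65, beside -0.09 for LOC4347055. No test of that change or of the difference between these 2 genes is given. LOC4339696 averaged 1207 in MBF, 1314 in WBF, 30.1 in M5D and 211 in W5D, and LOC4339045 averaged 1406, 1190, 25.8 and 159 in the same order of groups. LOC4346011 and LOC4324614 spanned a narrower range, 402 to 835 and 1337 to 3041 over the group means.

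**Figure D5:**
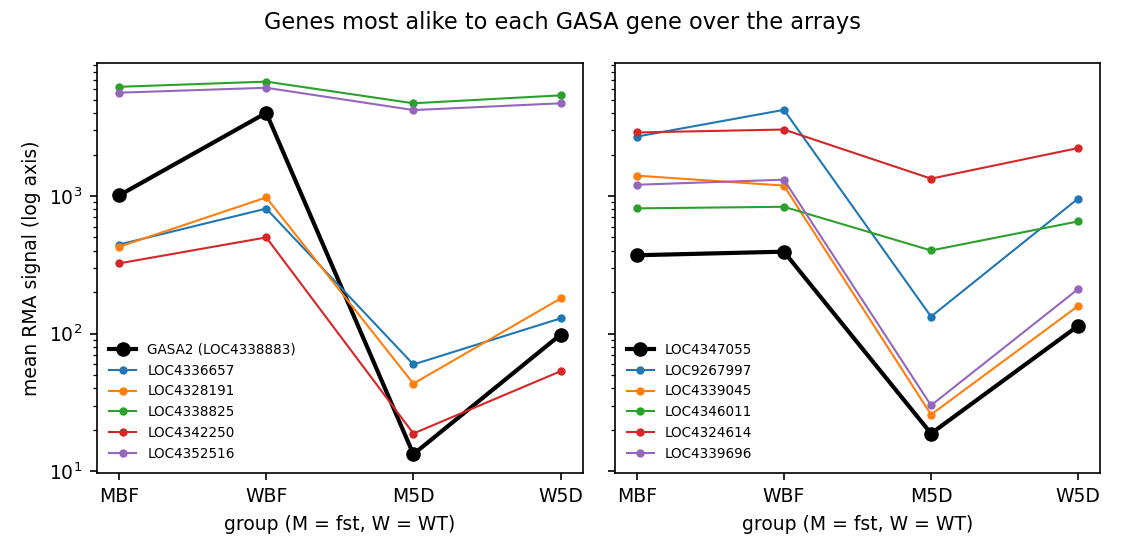
Group means, on a log axis, of GASA2 (left) and LOC4347055 (right), both in black, with the 5 genes most alike to each over the 12 arrays. For GASA2 the 5 include LOC4338825 and LOC4352516, which change little (4211 to 6777), and LOC4328191, which spans 43.3 to 976.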

How the data were processed

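RNA of panicles was hybridized to the Affymetrix Rice GeneChip. The authors computed the deposited intensity values, linear signals, with RMA in Affymetrix Expression Console (versions not given in the sources used here). RMA corrects background, makes the arrays' distributions alike and summarizes probes, which compresses differences between dim probe sets. Of the probe sets, 187 controls were left out and 57194 kept. A mean per group was fitted to log2 signals of all 12 arrays with limma 3.58.1 in R 4.3.3 (lmFit, eBayes, 8 residual degrees of freedom), and p-values of a comparison were corrected over its 57194 probe sets (Benjamini-Hochberg, threshold 0.05). The fit was tested on simulated data. The 95% intervals use limma's standard errors. The samples are labelled biological replicates, and p-values measure the spread between these pools. The number of arrays and, for dim probe sets, the RMA values themselves limit precision. An exact permutation test of 3 against 3 arrays cannot go below p = 0.1.

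The members and gene lists were chosen with earlier results of these data known. Named were both GASA genes, the pathway genes called or most changed, and the 5 most alike genes of each. Of the gene tables used here, no further GASA gene matched by name, and the 4 other family names listed are not analysed here. The suffix of the GASA2 probe set (_s_at) marks probes that match several transcripts, so a related gene may add to its signal. Of the pathway genes, KS1 has the same suffix and GAMYB has the suffix _x_at. Among the genes of the tissue sums, GLUA1 and PTC1 have _s_at, WX1 and RBCS have _x_at, and CAB2R has _a_at. Alternatives were quantile normalization again, median centring, a filter on dim probe sets (31178 kept), 16 added to signals, fits of the compared groups alone, trend and robust eBayes, array weights, the replicate block, probe sets without such suffixes (45818), a threshold of 0.01, any probe set of a gene and leaving out each array.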

Additional observations from a re-analysis of the deposited data

Results flagged for a closer look

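LOC4347055 stood out for an *fst* change that differed between the stages, by -2.54 on the log2 scale (5 DAP minus before flowering, SE 0.28, 95% interval -3.15 to -1.93). Since the gene was chosen for its change at 5 DAP, this is a description without a test, and it remained between -2.77 and -1.82 over 22 alternatives. Its signal was 371 ± 63.6 in MBF and 394 ± 53.0 in WBF, and 18.8 ± 5.54 in M5D and 114 ± 17.6 in W5D (SD, n = 3 each).

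The *fst* change of GA20ox3 at 5 DAP was higher by 0.69 than that before flowering (SE 0.17, adjusted p = 0.0305, limma), the changes being -0.04 before flowering and 0.65 at 5 DAP. The call was lost at a threshold of 0.01 and in 9 of 22 other alternatives, over which the difference lay between 0.60 and 0.79 and the adjusted p between 0.0114 and 0.0783. Of those 9, 7 left out a single array (MBF 1, MBF 3, WBF 2, WBF 3, M5D 2, W5D 1 or W5D 3), with adjusted p of 0.0526 to 0.0783.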

How the results depend on the processing

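The direction and the call of every tested comparison of GASA2 and LOC4347055 held in all alternatives run, apart from the sign of the LOC4347055 change before flowering, which was called in none (-0.22 to 0.03). The untested difference of the GASA2 change between the stages lay between -1.17 and 0.06. GASA2 between the stages ranged from -6.49 to -5.08 in *fst* and from -5.66 to -5.03 in WT, and LOC4347055 from -4.56 to -3.48 in *fst* and from -1.91 to -1.66 in WT. Among the untested values, GASA2 against WT lay between -2.37 and -1.68 before flowering and between -3.16 and -1.90 at 5 DAP, and LOC4347055 at 5 DAP between -2.86 and -1.90. The values nearest 0 at 5 DAP came with 16 added to the signals. Leaving out probe sets with _s_at, _x_at or _a_at removed GASA2 itself. The GASA genes past the threshold then numbered 1 in place of 2 between the stages within *fst* and within WT. For *fst* against WT, where GASA2 at both stages and LOC4347055 at 5 DAP were chosen by their change and the count is no test, they numbered 0 in place of 1 before flowering and 1 in place of 2 at 5 DAP.

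Of the pathway genes, 2 in place of 0 passed for *fst* against WT before flowering with array weights, which was the only alternative with a call there. For the difference of the *fst* change between the stages, 0 in place of 1 passed with quantile normalization again, at a threshold of 0.01 and without both arrays 2 of MBF and WBF, and 0 to 1 when single arrays were left out. Between the stages within WT, 5 in place of 8 passed at a threshold of 0.01 and without both arrays 2, and 5 to 8 without single arrays, the lowest without W5D array 2 or W5D array 3. GA20ox2 lost its call within WT also with quantile normalization (adjusted p = 0.0539), median centring (0.0779) and trend and robust eBayes (0.0607), and GID1 within *fst* (0.0113) was lost at the threshold of 0.01. The share of all probe sets that passed is not given for these alternatives, so their counts have no background beside them. Leaving out both arrays 2 was chosen after seeing the data. The cause of these differences was not tested.

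The replicate numbers share only a number: the deviations of same-numbered arrays from their group means correlated between -0.29 and 0.0725. With the replicate number as a block GA20ox3 kept its call (adjusted p = 0.0345 for the difference between the stages), and no call of a GASA or pathway gene changed. The M5D values of GASA2, 11.6 to 15.9, are near the lower quartile of the arrays, where the RMA background correction limits how low a value can be read.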

Other observations

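The neighbouring genes were looked up in the annotation order after the values of the GASA genes were seen, taking the nearest 2 measured genes on each side. None of the 4 neighbours of GASA2 passed the test for *fst* against WT at either stage (limma). Over all probe sets, 4.63% passed before flowering and 11.6% at 5 DAP. Of the 4 neighbours, 1 before flowering and 2 at 5 DAP had an unadjusted p under 0.05 (limma). LOC4338884, the next gene, averaged 1798 in MBF and 1916 in WBF, and 2186 in M5D and 1858 in W5D. Of the 4 neighbours of LOC4347055, LOC4347059 was higher in *fst* at 5 DAP, at a mean of 644 in M5D and 375 in W5D (log2 change 0.77, adjusted p = 0.000918, limma). The other 3 did not pass at either stage. Of these 4 neighbours, 2 before flowering and 2 at 5 DAP, LOC4347059 included, had an unadjusted p under 0.05 (limma). The share of all probe sets at that unadjusted threshold is not given here, so nothing is read from these counts for either gene.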
